A study of Mus musculus with 2 samples.

Results

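The proteasome genes of mouse macrophages were taken as every gene with at least 1 protein-coding transcript whose symbol starts with Psma, Psmb, Psmc, Psmd, Psme, Psmf or Psmg followed by a digit. The rule found 50 of 55536 annotated genes: all core, base and lid subunits so named, their activators, an inhibitor, assembly chaperones, a pair of tissue-restricted subunits and Psmc3ip, which shares the prefix but encodes a recombination factor. The macrophages were grown from C57BL/6J bone marrow and are primary cells. Lipid A, the membrane anchor of bacterial lipopolysaccharide and the ligand of TLR4, was given at 100 ng/ml for 12 h, removed for a 12 h rest, and given again at 100 ng/ml for 75 min. Ribosome-depleted total RNA from the cytosol was sequenced in 2 biological replicates of this 1 group. Both carry the same donor code and separate biosample records, and nothing in the labels says that they came from separate animals, so the spread between them may be technical. Cells without lipid A, or with a single dose, were not analysed here, so no value below measures a response to it.

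The proteasome is the protease that degrades proteins marked with ubiquitin. Its barrel-shaped core is made of alpha and beta rings, and the catalytic sites lie on the beta1, beta2 and beta5 subunits inside. A regulatory particle, built from a base with ATPases and a lid, recognises, unfolds and feeds in the substrates. In cells exposed to interferons, and in many immune cells, Psmb9, Psmb10 and Psmb8 take the places of Psmb6, Psmb7 and Psmb5 in newly built cores. The resulting immunoproteasome, often capped by the PA28 activator, makes many of the peptides that class I molecules present.

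Replicate 1 had 64187226 expected counts over the annotated genes and replicate 2 had 49429893, of which the 50 genes took 0.401% and 0.380%. Levels are in TPM, a unit that corrects for gene length and for library size, given for replicate 1 and then replicate 2. With 2 replicates no exact test on samples can reach a p under 0.5, so levels and their ratios are described by both values and their spread. All 8 macrophage markers examined were detected, where detected means that neither library had a TPM under 1. Of 24 markers of other lineages, 2 were detected, Cd4 at 16.74 and 14.09 and S100a8 at 2.21 and 4.35, and the 24 summed to 20.1 and 20.3. Cd3e, Cd3d, Cd8a and Ly6g, which define T cells and neutrophils, stood at 0.02 or less. In bulk RNA, fewer cells of a type and less RNA per cell cannot be told apart.

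Proteasome genes were broadly and strongly expressed. Detection was reached by 47 of the 50 members, against 40.0% of protein-coding genes. A TPM of 10 in both replicates was reached by 41 members, against 15.6% of protein-coding genes. The median percentile of detected members among detected protein-coding genes was 84.7, and their median level was 34.6 and 29.9. A TPM of 100 was reached in both by 5 members, against 1.75% of protein-coding genes, and they were Psme2, Psmb8, Psmb6, Psme1 and Psmb10. On transcripts annotated as protein-coding, only Psme2 (138.43 and 160.33) and Psme1 (124.17 and 117.79) reached it in both. Psmb6 stood at 145.88 and 97.84 on this count, Psmb8 at 78.10 and 85.63, and Psmb10 at 54.66 and 54.97. The 3 undetected members were Psma8, Psmb11 and Psmc3ip.

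**Figure D1:**
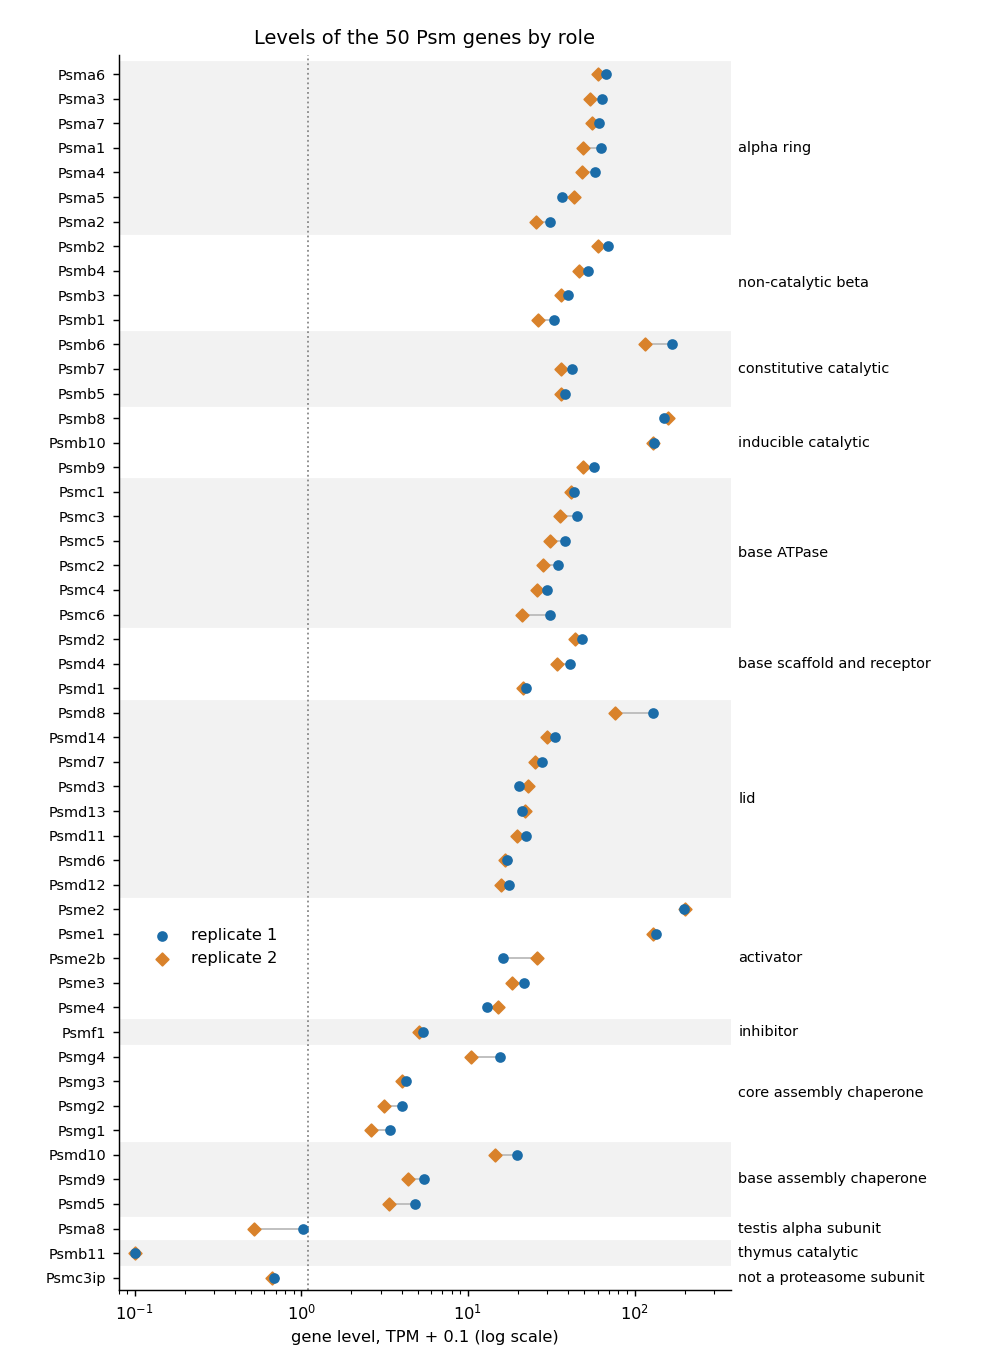
Gene level of each of the 50 members (TPM + 0.1, log axis) in replicate 1 (circles) and replicate 2 (diamonds), grouped by role; the dotted line marks a TPM of 1. Most structural subunits lie between 15 and 70, while Psmb6, Psmb8, Psmb10, Psmd8, Psme1 and Psme2 stand to the right and most assembly chaperones to the left, with Psmd10 and Psmg4 near the lowest lid subunits.

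Transcripts of all 3 inducible catalytic subunits were present at moderate to high levels beside those of the constitutive ones, but the exchange partners were not in a common ratio. Psmb8, the beta5i subunit, which cleaves after hydrophobic residues, stood at 149.80 and 158.92. Psmb5, the constitutive beta5 that it replaces, stood at 38.02 and 36.03. Both libraries thus placed the inducible gene far above its partner, with a log2 ratio of 1.98 and 2.14, a mean of 2.06 ± 0.11 (SD, n = 2) or 4.16-fold.

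At the beta2 position, which cleaves after basic residues in the constitutive core, the inducible gene also led. Psmb10, the beta2i subunit, stood at 130.24 and 129.46, the closest agreement among the catalytic genes by TPM. By expected counts scaled for library size, Psmb5 agreed most closely, with a log2 replicate ratio of -0.0034 against 0.0908 for Psmb10. Psmb7, its constitutive partner, stood at 41.79 and 36.04. The log2 ratio of Psmb10 to Psmb7 was 1.64 and 1.84, a mean of 1.74 ± 0.14 (SD, n = 2) or 3.34-fold.

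At the beta1 position the order was the opposite. Psmb9, the beta1i subunit, stood at 56.69 and 49.15, the lowest of the inducible genes. Psmb6, the constitutive beta1 subunit, stood at 168.04 and 115.49. The log2 ratio of Psmb9 to Psmb6 was -1.57 and -1.23, a mean of -1.40 ± 0.24 (SD, n = 2), so that Psmb6 was 2.64-fold higher. The sign was the same in both libraries for every pair, and each mean was several times its SD. Counting error alone gave a standard error of 0.0243 to 0.0334 on these log2 ratios, less than the spread between replicates.

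The order of the catalytic genes at the top was not fixed between libraries. Psmb6 ranked 1 of the 6 in replicate 1 and 3 in replicate 2, behind Psmb8 and Psmb10, so its place among these 3 did not separate beyond the spread. Psmb8 stood above Psmb10 in both libraries, by a log2 difference of 0.25 ± 0.07 (SD, n = 2). Psmb9 ranked 4 in both. Psmb7 and Psmb5 were last, and at 36.04 and 36.03 in replicate 2 they could not be separated. The constitutive set was therefore uneven, with Psmb6 above Psmb5 by a log2 difference of 1.91 ± 0.33 and above Psmb7 by 1.84 ± 0.23. Summed over the 3 genes, the inducible set held 57.6% and 64.3% of catalytic subunit TPM, and the change between libraries came with the lower Psmb6 value in replicate 2.

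These ratios depended on which transcripts of a gene were counted. Among detected members, 4 of 47 had under 75% of their TPM on transcripts annotated as protein-coding in both replicates, against 12.4% of detected protein-coding genes, and they were Psmb8, Psmb10, Psma3 and Psmd13. By read-based values Psmc6 also fell under 75% in both, at 60.3% and 70.2%, where the transcript table gave 93.7% and 94.6%. The median over detected members was 99.4% and 99.0%, close to the 98.7% and 98.4% of detected protein-coding genes, and 38 of 47 members had at least 95% in both replicates. The inducible genes Psmb8 and Psmb10 thus stood apart from Psmb5 and Psmb7, where 100.0% and at least 99.8% of TPM was on coding transcripts. Psmb9 had 88.8% and 91.2% on coding transcripts, and Psmb6 had 86.8% and 84.7%.

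Psmb8 was divided between a pair of transcripts at nearly equal levels. Psmb8-203, which is protein-coding and 840 bases long, took 50.53% and 52.22% of the gene. Psmb8-205, annotated as retained intron and 1234 bases long, took 46.97% and 45.27%. The read-based table, estimated separately from the reads, gave Psmb8-205 47.2% and 46.8%, so both tables and both libraries put its part within a few points. Psmb8-205 keeps intron 3 of Psmb8-203, which is 190 bases long and lies on chromosome 17 from 34199381 to 34199570 (mm10, plus strand), and 35.3% of its bases lie outside Psmb8-203. In Psma3, an alpha ring gene, the retained-intron transcript Psma3-203 took 24.67% and 26.79% of the gene, and 36.3% and 37.9% in the read-based table. The junction with the kept intron of Psmb8 is shown, a site at which the transcripts differ. The first 20 bases of the line below are coding exon, the rest is the start of the kept intron, and the capitals mark its GT donor, which is spliced in the coding transcript and read through in the other.
Psmb8 exon 3 into intron 3, chr17:34199361-34199420, plus strand: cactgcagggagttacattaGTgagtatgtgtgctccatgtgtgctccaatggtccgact

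Psmb10 was divided in another way. Its single coding transcript, Psmb10-201, took 41.97% and 42.46%, and Psmb10-203, a processed transcript of 426 bases with no annotated reading frame, took 51.47% and 45.79%. Only 11.3% of the bases of Psmb10-203 lie outside Psmb10-201, so few bases tell them apart. In the read-based table the coding transcript led, with 49.4% and 52.9% against 47.2% and 39.6%.

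With coding transcripts alone, chosen after these values were seen, all 3 pairs kept their direction and both leads of an inducible gene shrank. Psmb8 stood at 78.10 and 85.63 on this count, and its log2 ratio to Psmb5 was 1.14 ± 0.15 (SD, n = 2), or 2.21-fold. Psmb10 stood at 54.66 and 54.97, and its log2 ratio to Psmb7 was 0.50 ± 0.16, or 1.41-fold. The log2 ratio of Psmb9 to Psmb6 was -1.33 ± 0.29, close to its value over all transcripts. Psmb6 then ranked 1 of the 6 in both libraries, and the inducible set held 44.8% and 52.2% of the summed coding TPM. The majority of the inducible set over the constitutive set in summed TPM therefore did not hold in replicate 1 on this count. Coding transcripts of the read-based table gave mean log2 ratios of 1.13, 0.57 and -1.59 for Psmb8, Psmb10 and Psmb9 against their partners.

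**Figure D2:**
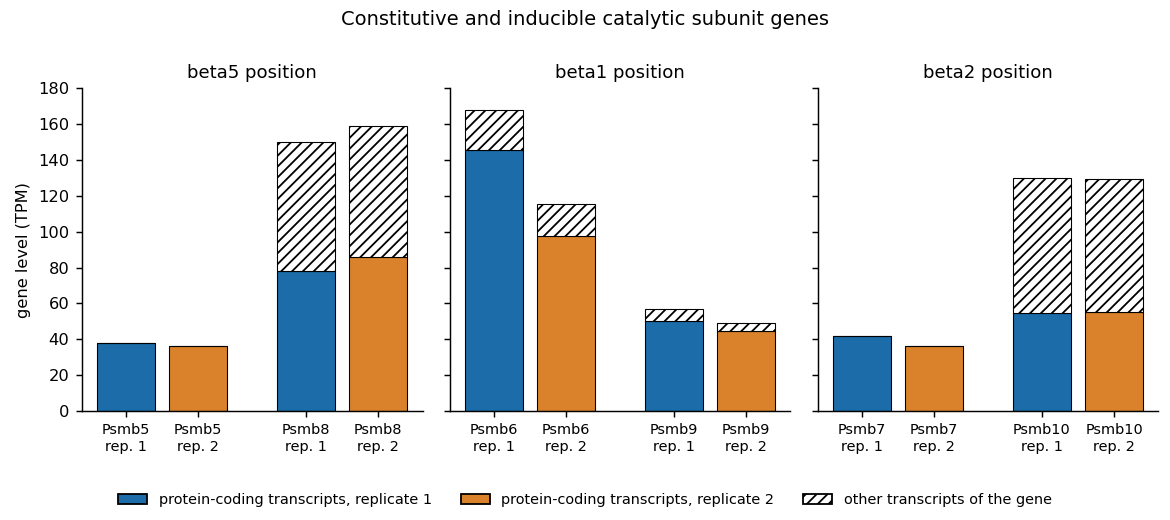
Gene TPM of the constitutive (left pair of bars) and inducible (right pair) subunit at each catalytic position, per replicate; solid parts are protein-coding transcripts and hatched parts other transcripts of the gene. The solid part is 52.1% and 53.9% of Psmb8 and 42.0% and 42.5% of Psmb10 in replicates 1 and 2, and nearly all of Psmb5 and Psmb7.

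**Figure D3:**
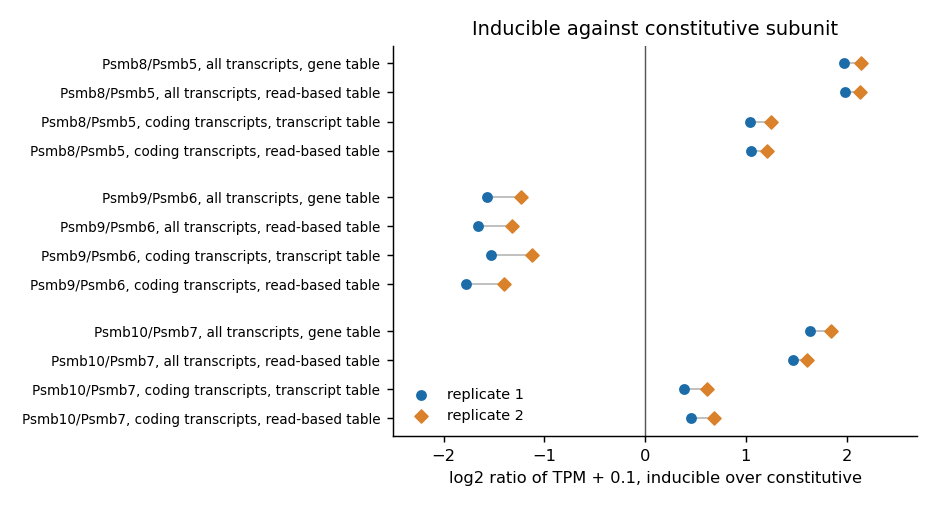
Log2 ratio of the inducible to the constitutive gene at each position (TPM + 0.1) in replicates 1 (circles) and 2 (diamonds), over all transcripts and over coding transcripts, in both kinds of table. Psmb8 and Psmb10 lie right of 0 and Psmb9 left of 0 in every row, and the coding rows of Psmb8 and Psmb10 lie nearer 0.

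Reads that match more than a single gene touch these values to different degrees. No 31-base stretch of Psmb10 occurs in another annotated gene, whereas 71.7% of those of Psmb5 do, most of them in the gene model Gm3375, which had a TPM of 0.08 and 0.04. For Psmb6, Psmb7, Psmb8 and Psmb9 the share was 6.24%, 11.3%, 13.7% and 4.79%. Psmb9 shares 212 exon bases with Tap1 on the opposite strand, and since strand use in counting is not given in the sources used here, reads of those bases cannot be assigned by strand. The pseudogenes Psmb5-ps, Psmb6-ps, Psmb6-ps2 and Psmb7-ps2 were listed at 0.02 or less.

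The genes of the immunoproteasome lie close to other genes of class I presentation. Psmb9 (chr17:34181987-34187764, minus strand), the peptide transporter gene Tap1 (chr17:34187553-34197225, plus strand), Psmb8 (chr17:34197721-34201454, plus strand) and Tap2 (chr17:34203527-34216321, plus strand) follow each other on mm10. The RefSeq start sites of Psmb9 and Tap1 point away from each other and lie 226 bases apart. The levels on the 2 sides did not move together between the libraries. Tap1 stood at 58.66 and 90.37, a log2 ratio of 0.62, while Psmb9 went from 56.69 to 49.15. Psmb10 (chr8:105935735-105938444, minus strand) is unlinked to them, and the constitutive genes lie on chromosomes 14 (Psmb5), 11 (Psmb6) and 2 (Psmb7).

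The PA28 activator genes were at or above the level of most inducible catalytic genes. Over all transcripts, Psme2 stood above them all, and Psme1 stood close to Psmb10, below Psmb8 and above Psmb9. On coding transcripts Psme2 (138.43 and 160.33) and Psme1 (124.17 and 117.79) both stood above Psmb8, Psmb9 and Psmb10. Psme2 and Psme1 encode the beta and alpha subunits of the PA28 ring, which caps the core in place of the regulatory particle and opens it to peptides. Psme2 had the highest level of all members over all transcripts, 197.74 and 200.20. On coding transcripts Psmb6 (145.88) stood above Psme2 (138.43) in replicate 1. Psme1 stood at 133.62 and 129.16. Their log2 ratio was 0.60 ± 0.05 (SD, n = 2) over all transcripts and 0.30 ± 0.20 over coding transcripts, so that the lead of Psme2 on the second count was not several times its spread. The difference came with Psme2-207, a retained-intron transcript at 28.19% and 18.34% of Psme2, for which the read-based table gave 17.2% and 3.50%. The genes neighbour each other on chromosome 14, Psme1 from 55578123 to 55581529 and Psme2 from 55587441 to 55591113.

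The other activators were far lower. Psme3, the nuclear PA28 gamma subunit, stood at 21.74 and 18.27, and Psme4, PA200, which binds the core in the nucleus and acts on acetylated histones, at 12.94 and 15.13. Psme1 exceeded Psme3 by 6.56-fold and Psme4 by 9.33-fold on the mean log2 scale. Psme2b, an intronless copy of Psme2 on chromosome 11 (48945354 to 48946190), was listed at 16.18 and 26.00. Of its 31-base stretches 76.5% occur in Psme2, so the split of reads between them is uncertain. The log2 ratio of Psme2 to Psme2b was 3.27 in mean over the gene tables and 2.47 in the read-based tables.

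The structural genes of the core particle lay within a few-fold of each other, Psmb6 apart, and no genes outside the proteasome were set beside them for spread. The 7 alpha subunits form the gated outer rings: the highest were Psma6 (67.27 and 60.38), Psma3 (63.95 and 53.91) and Psma7 (61.52 and 55.70), and the lowest was Psma2 (30.92 and 25.42). On coding transcripts Psma3 stood at 31.36 and 28.01, next to Psma2 at 30.93 and 25.42. The median of these 7 genes was 61.5 and 48.8. The 4 beta subunits without a catalytic site ran from Psmb1 (32.65 and 26.14) to Psmb2 (69.26 and 59.87), with Psmb3 and Psmb4 between them and a median of 46.3 and 41.3. Each constitutive subunit occupies its own position in the core, and over these 14 genes the SD of log2 levels was 0.59 ± 0.05 (SD over n = 2). Without Psmb6, a choice made after its value was seen, it was 0.42 ± 0.006, and with Psmb8, Psmb9 and Psmb10 added to the 14 it was 0.73 ± 0.005. The highest of the 14 exceeded the lowest by 5.03-fold, and without Psmb6 by 2.29-fold.

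Promoter sequence was compared for the constitutive catalytic genes that differed most. Nfe2l1 is the factor known to raise proteasome genes when the protease is inhibited, acting through antioxidant response elements, whose core was searched as TGACNNNGC on both strands. Windows from 250 bases before to 50 after RefSeq start sites (GRCm38.p6) were on hand for 42 of the 50 members, in 45 windows. The core occurred in 6 of the 45 (13.3%) and in 12.4% of all 32851 windows, so it was about as frequent among members as elsewhere. Psmb5 and Psmb6 both hold it close to the start site, and their levels differed by 3.76-fold. Whether the element acts on either gene in these cells was not tested. The capitals mark the match, and the sequences end 28 and 1 bases before the start sites.
Psmb5, chr14:54618023-54618142, minus strand: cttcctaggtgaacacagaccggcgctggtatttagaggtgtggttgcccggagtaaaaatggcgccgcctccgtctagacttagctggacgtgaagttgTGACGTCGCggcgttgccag
Psmb6, chr11:70525237-70525356, plus strand: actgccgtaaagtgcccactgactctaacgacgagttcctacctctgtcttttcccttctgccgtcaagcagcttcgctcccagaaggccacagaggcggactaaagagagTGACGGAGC

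Sites of the kind that interferon-induced factors bind were searched on both strands as GAAA, any 2 bases and GAAA. No match of it in a member's window overlapped a match of another motif. A match lay in 5 of the 45 member windows (11.1%) and in 3.44% of all windows. The 5 genes were Psme1, Psmb3, Psmd4, Psmd9 and Psmg4, and their mean levels ran from 4.82 for Psmd9 to 131 for Psme1. Among them only Psme1 is known for its part in the immunoproteasome. Psmb8, Psmb9, Psmb10 and Psme2 were not among them, but windows were on hand for only 42 of the 50 members. The matches of Psme1 and Psmg4 began after the start site, at positions 10 and 16, and the others before it. The NF-kB consensus, searched by name, lay in 1 of the 45 windows (2.22%), that of Psmd12, and in 4.51% of all windows. A match describes the letters in these windows and does not show binding. The sites are shown in 30 bases each on the gene's strand, with the match in capitals, so that the spacing of the paired GAAA or TTTC blocks can be compared.
Psme1, chr14:55578493-55578522: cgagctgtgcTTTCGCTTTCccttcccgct
Psmb3, chr11:97703261-97703290: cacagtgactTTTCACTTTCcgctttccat
Psmd4, chr3:95042675-95042704: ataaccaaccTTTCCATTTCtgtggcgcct
Psmd9, chr5:123228021-123228050: gggacagaatGAAAAAGAAAggaatgaaca
Psmg4, chr13:34162969-34162998: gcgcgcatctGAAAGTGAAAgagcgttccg

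Regulatory particle genes stood below the core. The median of its 17 subunit genes was 30.8 and 25.9, and the median of the 14 constitutive core genes was higher by a log2 difference of 0.85 ± 0.02 (SD, n = 2), or 1.80-fold. The 6 ATPases of the base, which unfold substrates and thread them into the core, were the most even class with more than 3 members, with an SD of log2 levels of 0.25 and 0.34. Psmc1 (43.37 and 41.70) and Psmc3 (45.19 and 35.36) led them and Psmc5 followed at 38.11 and 30.78. The lowest were Psmc2 (34.62 and 28.00), Psmc4 (29.73 and 25.91) and Psmc6 (30.80 and 21.12). Of the base scaffold and ubiquitin receptors, Psmd2 stood at 48.27 and 43.95, Psmd4 at 40.88 and 33.97, and Psmd1 at 22.16 and 21.37.

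Over all transcripts, the lid was low and even except for a single gene. Psmd8, the Rpn12 subunit that joins the lid last, stood at 128.55 and 76.08. Next came Psmd14, the Rpn11 deubiquitinase that removes ubiquitin chains before degradation, at 33.01 and 29.89, and its partner Psmd7 at 27.71 and 25.04. The lowest were Psmd12 (17.59 and 15.80), Psmd6 (17.08 and 16.68) and Psmd11 (22.31 and 19.67). Without Psmd8, a choice made after its value was seen, the 7 others spanned 1.88-fold over all transcripts, against 6.13-fold with it. Psmd13 (21.02 and 21.86) had 60.2% and 65.4% of its TPM on coding transcripts, with 38.37% and 31.14% on Psmd13-211, which is annotated as subject to nonsense-mediated decay. On coding transcripts Psmd13 stood at 12.65 and 14.29, the lowest of the lid genes, below Psmd6 at 16.86 and 16.32.

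Most Psm genes that help to build the proteasome, and its inhibitor, were below the subunits, with Psmd10 and Psmg4 near the lowest of them. The 4 core assembly chaperones had a median of 4.04 and 3.49: Psmg4 stood at 15.54 and 10.35, Psmg3 at 4.16 and 3.92, and Psmg2 and Psmg1, which form a heterodimer that assembles the alpha ring, at 3.92 and 3.05 and at 3.33 and 2.53. The core genes exceeded them by 13.3-fold in median. Psmd10 (gankyrin), Psmd9 and Psmd5, which guide assembly of the base, stood at 19.53 and 14.46, 5.34 and 4.29, and 4.70 and 3.28. The regulatory particle subunits exceeded these 3 by 5.80-fold in median. Psmf1, known as the inhibitor PI31, stood at 5.31 and 4.98.

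Subunits restricted to other tissues were low or at 0. Psmb11, the beta5t subunit of thymic epithelium, had an expected count of 0 in both libraries, and the deposited interval allowed a TPM of up to 0.0769 and 0.0967. It lies beside Psmb5 on chromosome 14, from 54621433 to 54629556. Psma8, the alpha subunit of testis proteasomes, stood at 0.93 and 0.42, from 112 and 38 expected counts. Psmc3ip, whose product Hop2 acts in meiotic recombination, stood at 0.59 and 0.57.

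The 2 libraries gave close values for most members. The log2 ratio of replicate 2 to replicate 1 had a median of -0.18 over the 47 detected members and -0.14 over all detected genes. On this scale 40 members were lower and 7 higher in replicate 2, against 68.6% of detected protein-coding genes lower. With TPM rescaled to protein-coding genes, 23 were lower and 24 higher, and the median over all detected genes moved to 0.05, so the split follows the scale of the whole library. Relative to the median of all detected genes, the members' median differed by -0.0464 on the deposited scale and by -0.0437 on the rescaled one. The 7 members higher in replicate 2 by TPM were Psme2b, Psma5, Psme4, Psmd3, Psmb8, Psmd13 and Psme2. By read-based values, 46 of 47 members and 94.2% of all detected genes were lower, and Psme2b alone was higher.

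Psmd8 and Psme2b were the detected members at least 1.5-fold apart between the replicates, 2 of 47, against 8.67% of detected protein-coding genes. Psmd8 was lower in replicate 2 by a log2 ratio of -0.76, and Psme2b was higher by 0.68. Psmg4 at -0.58, Psmc6 at -0.54 and Psmb6 at -0.54 came close to that fold. In a two-sided exact binomial test on rounded expected counts, with adjustment over all 13298 genes tested and a minimum fold of 2, 1 of 49 members tested was called, against 5.45% of all genes. That member was Psma8, which was lower in replicate 2 (exact binomial test, adjusted p = 1.49e-05, log2 ratio -1.17) and lies under the detection limit. Psmd8 (16878 and 8128 counts) and Psmb6 (10582 and 5853 counts) differed by more than counting error at log2 ratios of -0.68 and -0.48, with adjusted p of 3.47e-275 and 1.21e-92 in the same exact test, but by less than the minimum fold. This was not particular to them, since 34 of 49 members and 56.4% of all genes had an adjusted p under 0.05 in that test. The test compares these libraries, not conditions, and holds counting error only. With edgeR's exact test at an assumed coefficient of variation of 0.2 no member was called, against 1.04% of all genes, and 1 of 49 had an unadjusted p under 0.05, against 5.92% of all genes.

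**Figure D4:**
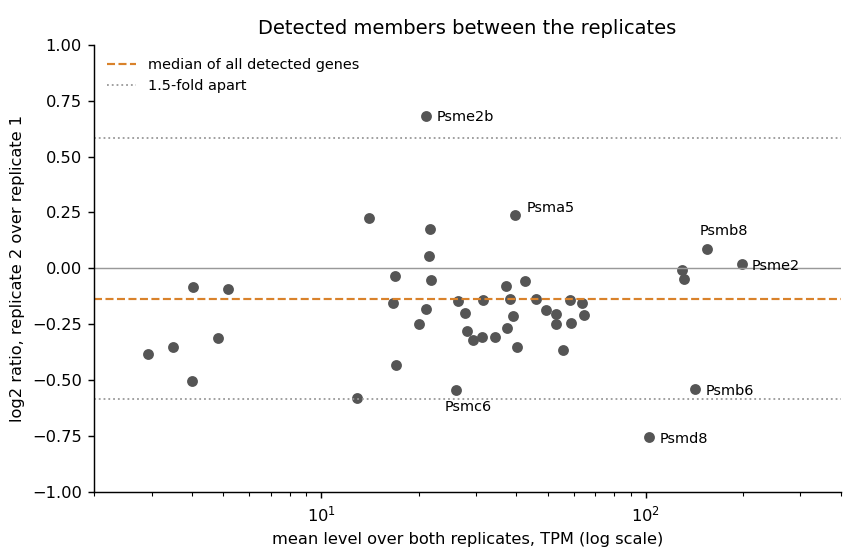
Log2 ratio of replicate 2 to replicate 1 (TPM + 0.1) of the 47 detected members against their mean TPM (log axis); the dashed line is the median of all detected genes and the dotted lines mark 1.5-fold. Most members lie near or below the dashed line, Psme2b lies above the upper dotted line and Psmd8 below the lower one.

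Genes that work with the proteasome without bearing its prefix were described from a list of 16, of which 15 matched the annotation and all 15 were detected, at a median of 25.4 and 20.0. Pomp, the chaperone that completes the core and favours the immunoproteasome, stood at 90.89 and 70.45, above any Psmg gene. Sem1 and Adrm1, lid and base subunits with names of their own, stood at 42.07 and 28.50 and at 27.97 and 22.02. The factor genes Nfe2l1 (59.50 and 53.01) and Nfe2l2 (133.38 and 90.47), the latter a regulator of oxidative stress genes, were also abundant. Among the proteasome-bound deubiquitinases, Usp14 stood at 14.04 and 13.27 and Uchl5 at 9.91 and 8.42. Of the 15, 13 were lower and 1 higher in replicate 2 on the deposited scale, with Ecpas equal, at a median log2 ratio of -0.32. Of all detected genes, 68.2% were lower on that scale and 42.8% with TPM rescaled to protein-coding genes. Such counts therefore depend on the scale.

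Genes that carry the peptides onward were higher and differed between the libraries in the other direction. All 12 listed genes of class I peptide supply were detected, at a median of 188 and 213. Tap2 stood at 21.44 and 32.46, and Tapbp, tapasin, at 222.90 and 313.06. Of the 12, 10 were higher and 2 (B2m and Irf1) lower in replicate 2 on the deposited scale, at a median log2 ratio of 0.38. On that scale 68.2% of all detected genes were lower, and 42.8% with TPM rescaled to protein-coding genes. Psmb8 (0.09), Psmb10 (-0.01), Psmb9 (-0.21), Psme1 (-0.05) and Psme2 (0.02) lay between the class I median and the median of the proteasome partners. Psmb5 (-0.08), Psmb7 (-0.21) and the median of all detected genes (-0.14) lay there too, while Psmb6 (-0.54) lay below. The position was therefore not particular to the inducible and PA28 genes. The 8 macrophage markers differed between the libraries to unequal degrees, from Adgre1, which encodes F4/80, at 357.65 and 706.47, through Lyz2 at 2912.50 and 3114.91, to Cd68 at 686.90 and 537.71. Whether the cells or the RNA recovered from them differed was not tested.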

How the data were processed

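Total RNA of the cytosolic fraction was measured in 2 libraries of 1 group. The authors deposited, per library, a gene table and a transcript table from an alignment and a transcript table estimated from the reads. Their expected counts, so named per the file headers, are estimated reads per feature with no scaling. TPM values, scaled over all features including short structured RNAs, were deposited in the same tables. The deposited percent values split a gene's TPM over its transcripts. The bounds of the deposited TPM interval are a signal per gene with no level stated, and were 6.38% and 7.29% of the value wide in median over detected members. The text deposited with the tables names mm10 and GENCODE M21; for aligner, quantifiers and strand use nothing is given in the sources used here.

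The members, lists and roles were chosen with earlier results of these data known. All members could be named, with values for the catalytic genes, activators, tissue-restricted genes and the highest and lowest 3 of each role. Ratios are log2(TPM + 0.1) differences within a library. Coding levels sum the TPM of transcripts annotated as protein-coding. Shared stretches are 31-base words of all annotated transcripts. Between the libraries, expected counts were rounded, library sizes scaled by TMM (edgeR 4.0.16, R 4.3.3), genes with a mean count under 10 left out, and a two-sided exact binomial test run per gene with Benjamini-Hochberg adjustment (threshold 0.05, fold of at least 2 with 0.5 counts added). It was tested on simulated data. DESeq2 1.42.0 gave alternative size factors. Expected counts of detected members ran from 190 to 16878, so counting error is small against the spread between replicates for most. Sequences are from GENCODE M21 transcripts and RefSeq windows (GRCm38.p6). FPKM values were not used. Some items are not reported here.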

Additional observations from a re-analysis of the deposited data

How the results depend on the processing

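Under 48 alternative settings of 7 results, 33 stayed close to the reported value, 14 moved and 1 changed direction. The 33 include the settings that left out a replicate. For the pairs and the core SD these are no test, because either of 2 replicates always lies within 1 SD of their mean. The result that changed direction was the median log2 replicate ratio of members. It went from -0.18 to 0.0052 with TPM rescaled to protein-coding genes, an alternative added after seeing the data. Without length correction, as CPM of expected counts, the mean log2 ratio of Psmb8 to Psmb5 was 2.34, that of Psmb9 to Psmb6 was -0.78, that of Psmb10 to Psmb7 was 1.08, and the SD of log2 levels over the core genes was 0.47. The read-based table gave 1.53 for Psmb10 to Psmb7 and a median replicate ratio of -0.59 for members, where all detected genes had -0.53. With coding transcripts, added after seeing the data, Psmb8 to Psmb5 was 1.14 (1.13 in the read-based table) and Psmb10 to Psmb7 was 0.50 (0.57). The core SD was 0.73 with the 3 inducible genes added and 0.42 without Psmb6, which was added after seeing the data. Between the replicates, 34 of 49 members were called with no minimum fold, where 56.4% of all genes were, and 0 with edgeR's exact test at a coefficient of variation of 0.2, where 1.04% were. Leaving out a replicate gave 1.98 to 2.14, -1.57 to -1.23 and 1.64 to 1.84 for the pairs, 0.55 to 0.63 for the core SD and 47 in both cases for detected members, whose number was 41 at a TPM minimum of 5 and 49 with TPM rescaled to protein-coding genes or at an expected count of at least 10. No paired analysis was possible because there is 1 group. Depth limits Psma8, Psmb11 and Psmc3ip, and the core chaperones Psmg1, Psmg2 and Psmg3 at 190 to 370 counts.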
